A study of Mus musculus with 6 samples.

Results

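The ribosomal proteins described here were 32 mRNA probes of 28 genes on a mouse microarray. They were chosen by gene name from the part of the study's mRNA table held here, which names 4093 of the 59729 probes on the array. Names of the forms Rpl, Rps and Rplp gave 27 probes of 24 genes for the cytosolic ribosome, of which 19 belonged to the large and 8 to the small subunit. Names of the form Mrps gave 5 probes of 4 genes for the mitochondrial ribosome, and the part of the table held here had no name of the form Mrpl. Another 2 probes, for the kinases Rps6ka1 and Rps6kb1, fitted the letters of the rule without encoding a ribosomal protein and are given apart. A probe with a pseudogene name, 1 in all, was left out. RefSeq assigned the transcript of each of the 32 probes to the same gene symbol. The table held here lists mostly mRNAs that were detected in control heart, since 98.2% of its probes were detected on that array. The presence of a ribosomal protein in control heart is therefore no finding.

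The study compared male C57BL/6J mice with heart failure (HF) and control mice. Isoproterenol, which activates β-adrenergic receptors, was injected under the skin at 40 mg/kg/day over 1 week to induce HF, and saline was injected in controls. Age is not given in the sources used here. For heart, whole blood (WB) and plasma of either group, the RNA of several animals was combined and put on 1 array, which gave 6 arrays. No condition therefore had a replicate, and no difference within a tissue was tested. The methods give different numbers of animals for these mixtures and for the preparation of blood and plasma RNA. In mixtures of this kind, fewer cells of a type and less RNA per cell cannot be told apart.

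A ribosome reads an mRNA and joins amino acids into protein, and each of its subunits holds ribosomal RNA together with many small, mostly basic proteins. The mRNAs of the cytosolic ribosomal proteins are among the most abundant in many cells, and most of them begin with a C followed by a run of C and T (the terminal oligopyrimidine, or TOP, tract), through which their translation follows nutrient and growth signals. Mitochondria have a ribosome of their own, whose proteins are encoded in the nucleus, made in the cytosol and imported, and which makes a few subunits of the respiratory chain. The heart is rich in mitochondria, whereas mature red cells have lost their ribosomes.

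The starts of these genes are shown because the TOP tract is a feature of sequence that the choice by name did not use. RefSeq start windows were held for 17 of the 24 cytosolic genes and 4 of the 4 mitochondrial genes. The cytosolic genes without one included Rpl17, Rpl29, Rpl30 and Rps27a. Each line gives 15 bases before and 15 bases from an annotated start, on the strand of the gene, in RefSeq GRCm38.p6, and capitals mark a run of C and T that opens with C, is at least 5 bases long and begins within 5 bases of the start.
Rpl38 (chr11:114668565-114668594, plus strand): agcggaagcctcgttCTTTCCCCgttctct
Rpl28 (chr7:4792950-4792979, plus strand): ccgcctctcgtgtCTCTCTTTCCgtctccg
Rpl18 (chr7:45718056-45718085, plus strand): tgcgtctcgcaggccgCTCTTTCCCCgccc
Rpl35a (chr16:33056467-33056496, plus strand): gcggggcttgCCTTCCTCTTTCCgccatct
Rps6 (chr4:86857353-86857382, minus strand): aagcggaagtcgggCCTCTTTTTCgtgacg
Rps2 (chr17:24720048-24720077, plus strand): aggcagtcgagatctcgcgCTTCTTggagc
Rpl26 (chr11:68901551-68901580, plus strand): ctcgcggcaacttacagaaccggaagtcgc
Rpl3l (chr17:24727811-24727840, plus strand): gagtgttctagctctgtcatttgacctctg
Mrps33 (chr6:39810922-39810951, minus strand): ttccgcctctCTCCTgctctctggagctgg
Mrps36 (chr13:100744645-100744674, minus strand): ttatagctcctcagtgacatcacacaggct
The first 6 lines are cytosolic genes with such a run. Rpl35a also has annotated starts, not printed here, without one. Rpl26, Rpl3l (the muscle paralog of Rpl3) and the mitochondrial gene Mrps36 had none in these windows, whereas the mitochondrial gene Mrps33 had a short one that ended before the start.

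A run of this kind began within 5 bases of an annotated start in 10 of 17 cytosolic genes (58.8%), in 1 of 4 mitochondrial genes and in 21.2% of 27025 genes with a window. A gene was counted where any of its annotated starts had one. By window the shares were 12 of 23 for the cytosolic genes (52.2%) and 18.3% for all genes. In Rpl19 and in Mrps33, the mitochondrial gene counted, the run lay wholly before the annotated start. The cytosolic genes with none in this position were Rpl22, Rpl26, Rpl37a, Rpl3l, Rplp0, Rps15 and Rps4x, and the difference between the families was not tested. Annotated starts were not checked against measured starts of transcripts. A tract at a start further away would not be counted, so a gene with none here may still have a TOP tract. In the 300 bases around the start, searched on both strands, CTTTCC was found in 64.7% of the cytosolic genes against 29.3% of all genes. CTCTTT was found in 47.1% against 25.6%, and CGGAAG, the core letters of many sites of ETS factors, in 52.9% against 18.8%. CTCTTT and CTTTCC can overlap each other. These are matches of letters and carry no evidence that a factor was bound.

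Levels are given as log2 of the quantile-normalized signal, and a probe was taken as detected if its spot was well above background and no outlier spot. A probe was called higher or lower in HF where HF and control arrays of a tissue had both detected it with a difference of 2-fold or more, that is of 1 or more on the log2 scale. Errors are those that the scanner software gives for the spots within an array, combined over the pair of arrays, and they leave out differences between mice. Between 25% and 47.3% of all probes were detected on an array, and no array had over 0.974% of its 308 negative control spots above background. The 4 arrays of control heart, HF heart, HF WB and HF plasma carried a scan time close to each other and the 2 arrays of control WB and control plasma another, so that scan and HF cannot be told apart in WB or plasma. Cardiomyocyte markers were well above background for 17 of 17 probes on both heart arrays, and erythroid markers for 5 of 5 on both WB arrays. Erythroid markers were also well above background for 5 of 5 probes on both heart arrays. Their summed signal was 179754 in control heart and 221367 in HF heart. Control plasma also had 5 of 5 erythroid probes, with a summed signal of 461641 against 487034 in control WB, whereas HF plasma had 3 of 5 and a sum of 11888.

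Across the 6 arrays, HF heart was most often the highest array of a cytosolic probe and HF plasma most often the lowest. HF heart gave the highest level of 11 of the 27 cytosolic probes (40.7%) and HF plasma the lowest of 16 (59.3%), where the named mRNA probes had 16.7% and 28.5%. HF plasma was also the highest array of 5 (18.5%, against 30.5%), and control heart the lowest of 4 (14.8%, against 8.09%). The family's median log2 level was 9.62 in control heart, 9.66 in control WB and 9.53 in control plasma. In HF it was 9.89 in heart, 8.73 in WB and 8.83 in plasma. Of the 27 cytosolic probes, 27 were detected on either heart array, 22 in control WB, 23 in HF WB, 25 in control plasma and 18 in HF plasma, and 15 were detected on all 6 arrays. Of the 5 mitochondrial probes, 5, 3, 3, 2, 3 and 3 were detected in the same order of arrays, and only that of Mrps36 on all 6. Of the named mRNA probes, 98.2% were detected in control heart, 75.5% in HF heart, 64.2% in control WB and 73.6% in HF WB. In control plasma 81.8% and in HF plasma 64.9% were, so that 18 of 27 in HF plasma is near that share. Rpl28 was an outlier spot in control WB and control plasma, and Rpl34 in control WB.

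**Figure D1:**
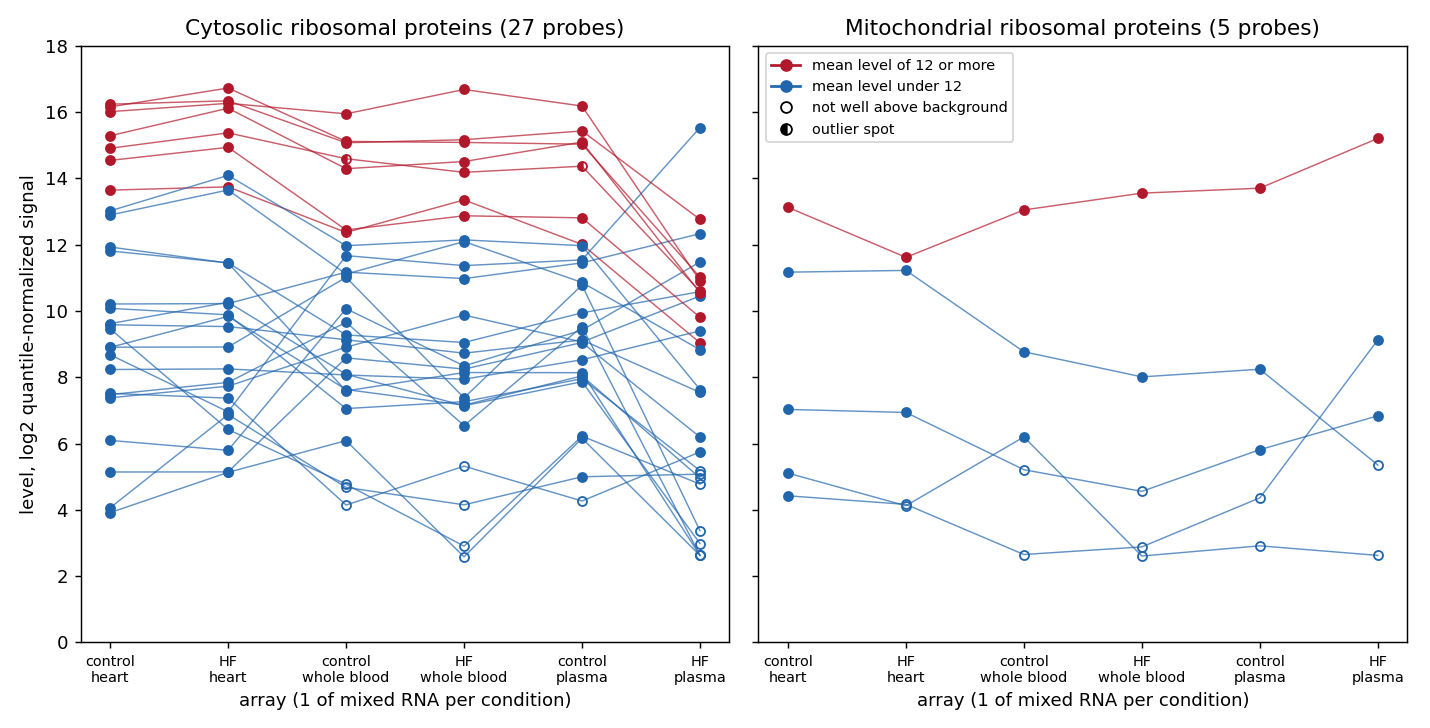
Log2 quantile-normalized level (vertical axis) of each ribosomal protein probe on the 6 arrays (horizontal axis), with a line for each probe, cytosolic on the left and mitochondrial on the right. Open points were not well above background. The 7 cytosolic probes with a mean level of 12 or more stay high on 5 arrays and drop in HF plasma, whereas Mrps36 is highest there.

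In heart, most cytosolic ribosomal protein mRNAs differed less than 2-fold between HF and control. All 27 probes were detected on both arrays, and 3 were higher, 2 lower and 22 under 2-fold. Among the named mRNA probes 11.6% were higher and 17.1% lower, so 3 of 27 is near the background for a rise and 2 of 27 below it for a fall. The named probes are mostly those detected in control heart, the control side of this comparison. Among all probes 13.9% were higher and 12.9% lower. The median log2 fold change of the family was 0.10, with an interquartile range from -0.10 to 0.61, against -0.16 for the named mRNA probes and 0.02 for all probes. The large subunit had a median of 0.10 and the small subunit of 0.25, and 19 of the 27 probes were above 0. The summed signal of neutrophil markers was 322 in control and 3024 in HF heart, and that of fibroblast markers 7746 and 14344. Their part in these values was not tested.

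The largest difference in heart was in Rpl3l, which takes the place of Rpl3 in ribosomes of striated muscle. Rpl3l was at a log2 level of 9.46 in control heart, 6.42 in HF heart, 4.77 in control WB, 2.90 in HF WB, 6.22 in control plasma and 4.77 in HF plasma. It was not well above background in control WB, HF WB or HF plasma, and control heart was its highest array. In heart Rpl3l fell by 3.04 on the log2 scale in HF (error 0.22).

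Rps2, a small subunit protein at the channel through which mRNA enters, also fell in HF heart. Its log2 level was 8.68 in control heart, 6.96 in HF heart, 11.67 in control WB, 11.37 in HF WB, 11.54 in control plasma and 15.54 in HF plasma. Its lowest arrays were those of heart and its highest was HF plasma. The log2 fold change was -1.72 (error 0.21) in heart, -0.30 in WB and 3.99 (error 0.20) in plasma. Rps2 and Rpl3l, the only cytosolic members that fell in HF heart, start 7763 bases apart on the same strand of chromosome 17. Rpl22, a large subunit protein, had the next most negative value in heart, -0.49 (error 0.20). Rpl22 was at 11.93 in control heart, 11.45 in HF heart, 7.59 in control WB, 8.14 in HF WB, 8.14 in control plasma and 2.62 in HF plasma, where it was not well above background.

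Rpl29 and Rpl18 were among the members that were higher in HF heart. Rpl29, a large subunit protein, was at 4.06 in control heart, 6.87 in HF heart, 4.68 in control WB, 4.15 in HF WB, 5.0 in control plasma and 5.08 in HF plasma on the log2 scale. Its level stood out on the HF heart array alone, and the log2 fold change there was 2.81 (error 0.31). Rpl18, also of the large subunit, was at 3.91 in control heart, 5.13 in HF heart, 6.09 in control WB, 2.58 in HF WB, 6.16 in control plasma and 2.62 in HF plasma. It was detected on both heart arrays and in control blood and plasma, and its change in heart was 1.22 (error 0.38). Both probes were dim in control heart, where the lowest level of any detected probe was 3.56, and with a normexp background correction the value of Rpl18 was 0.27.

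The brightest cytosolic probes moved little in heart and in 1 direction. In all, 7 probes, among them those of Rpl26, Rpl28, Rpl34, Rpl38 (probe 1), Rps4x and Rps15, had a mean log2 level of 12 or more over the 6 arrays, a limit set after their values had been seen. All 7 lay above 0 in heart, from 0.10 in Rpl34 to 0.83 in Rpl26, and 0 of 7 differed 2-fold. Among the 1087 probes of all kinds with a mean of 12 or more, 29.1% were lower and 4.23% higher, with a median of -0.19. Scaling to the 75th percentile in place of quantile normalization kept these 7 above 0, with a median of 0.75 against 0.39.

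**Figure D2:**
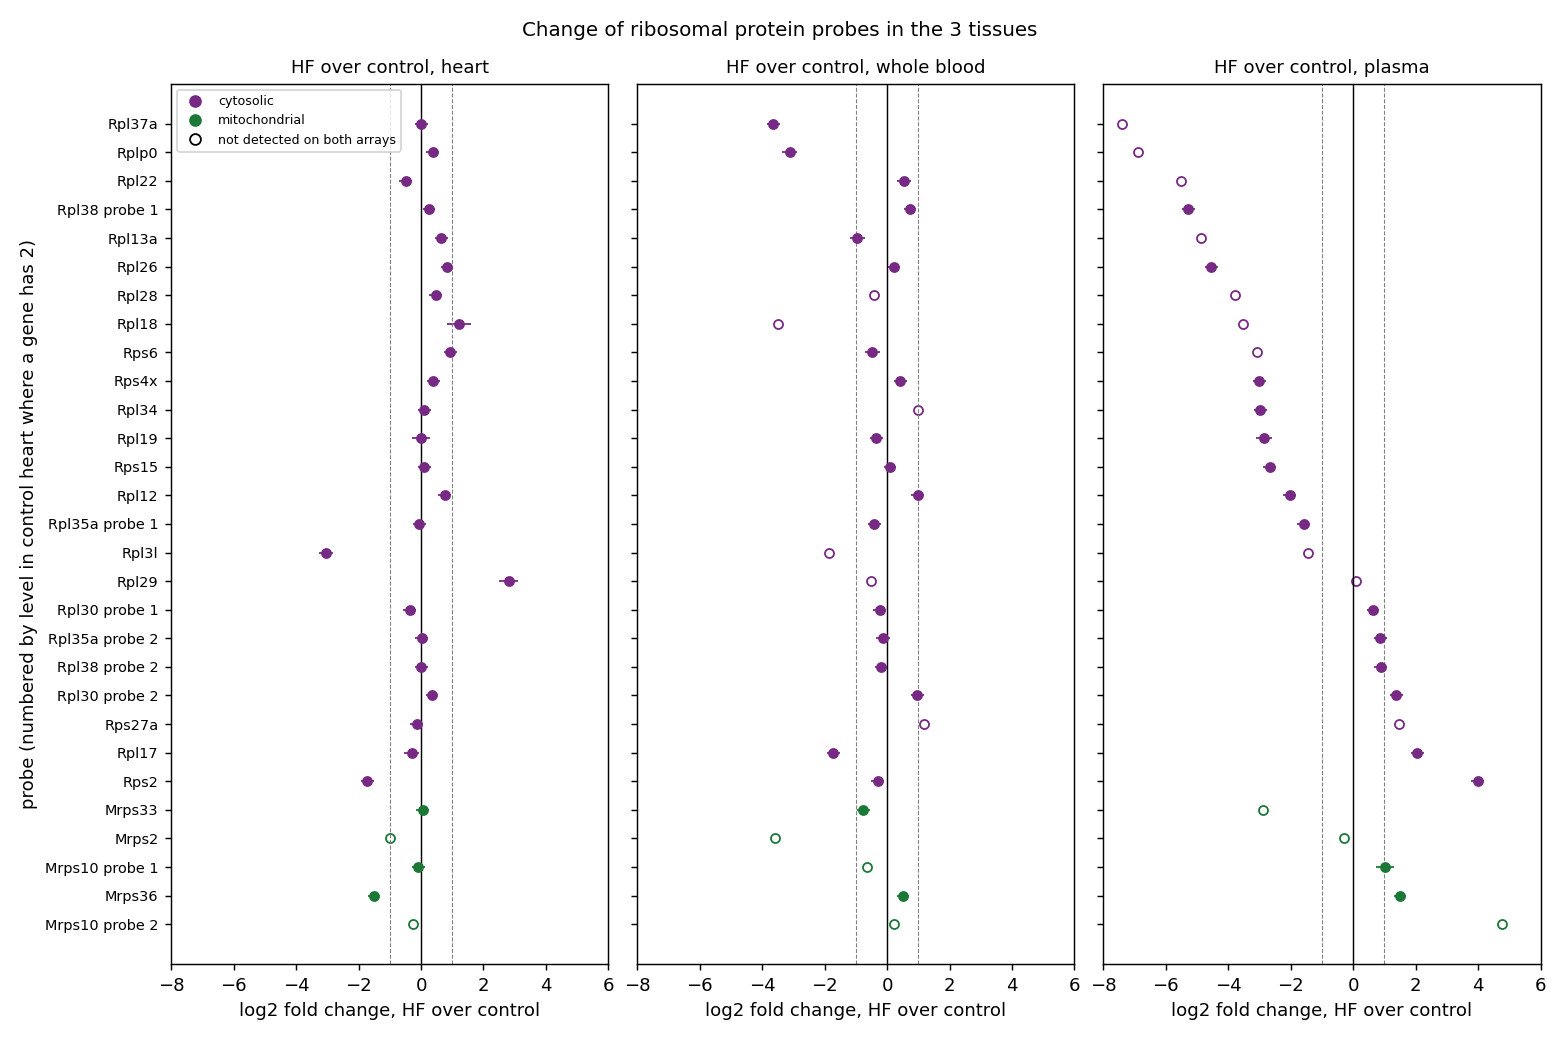
Log2 fold change of HF over control (horizontal axis) for ribosomal protein probes (vertical axis) in heart, WB and plasma, with the error within arrays as a bar and dashed lines at 2-fold. Open points were not detected on both arrays and carry no bar. Values crowd around 0 in heart and WB and spread from below -7 to above 4 in plasma.

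In WB, most cytosolic members detected on both arrays differed less than 2-fold between HF and control, and none was higher in HF. Of 27 probes, 21 were detected on both arrays, and 0 were higher, 3 lower and 18 under 2-fold. The named mRNA probes had 20.1% higher and 27.6% lower, so that both counts of the family lay below the background. With scaling to the 75th percentile 7 of the 21 were lower, where 32.6% of all probes were, so that the lower count was then near the background. The median was -0.13 (interquartile range -0.41 to 0.22), and -0.19 over all 27 probes without regard to detection, against -0.20 and -0.07 for the named mRNA probes. Of the other 6 probes, Rpl18 was at least 1.86-fold lower, Rpl28 and Rpl34 were outlier spots in control WB, and Rpl3l, Rpl29 and Rps27a were not well above background on either array. A bound of this kind sets the level of the bright spot against the lowest level of any detected probe on the other array, or against the dim spot itself where that is higher.

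The 3 members that fell in WB were all large subunit proteins. Rpl37a, which carries a zinc finger, was at 8.91 in control heart, 8.91 in HF heart, 11.02 in control WB, 7.38 in HF WB, 10.78 in control plasma and 3.37 in HF plasma. Rplp0, the base of the stalk that recruits translation factors, was at 7.48 in control heart, 7.85 in HF heart, 9.66 in control WB, 6.54 in HF WB, 9.53 in control plasma and 2.62 in HF plasma. Both were highest on the control WB and control plasma arrays and not well above background in HF plasma. The log2 fold change in WB was -3.64 (error 0.21) in Rpl37a and -3.12 (error 0.23) in Rplp0, and their values in heart were 0.00 and 0.37.

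Rpl17, which lines the exit tunnel for the nascent chain, went down in HF WB and up in HF plasma. Rpl17 was at 6.10 in control heart, 5.80 in HF heart, 10.07 in control WB, 8.34 in HF WB, 9.42 in control plasma and 11.48 in HF plasma. Both heart arrays were lowest and HF plasma highest. Its log2 fold change was -0.30 in heart, -1.73 (error 0.21) in WB and 2.06 (error 0.20) in plasma.

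The most positive values in WB stayed under 2-fold. Rpl12, a protein at the base of the stalk, had 0.98 (error 0.20), and its log2 level was 12.90 in control heart, 13.65 in HF heart, 11.11 in control WB, 12.10 in HF WB, 10.86 in control plasma and 8.83 in HF plasma. Rpl30 (probe 2) had 0.97 and Rpl38 (probe 1) 0.73. With heart and blood arrays quantile normalized apart Rpl12 passed the limit at 1.01, and with a normexp correction Rpl30 (probe 2) at 1.05. Scaling to the 75th percentile turned the direction of bright probes in WB, as Rpl26 went from 0.22 to -1.42, Rps15 from 0.09 to -1.64 and Rpl38 (probe 1) from 0.73 to -0.81. The median of the family was then -0.80, beside -0.35 for all probes. Summed marker signals of WB were 937 in control and 25735 in HF for neutrophils, 23330 and 100418 for cardiomyocytes, 3349 and 1153 for lymphocytes, and 6982 and 3132 for platelets. Of the 17 cardiomyocyte probes, 4 were well above background in control and 16 in HF WB. The part of these cells in the ribosomal protein values was not tested.

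**Figure D3:**
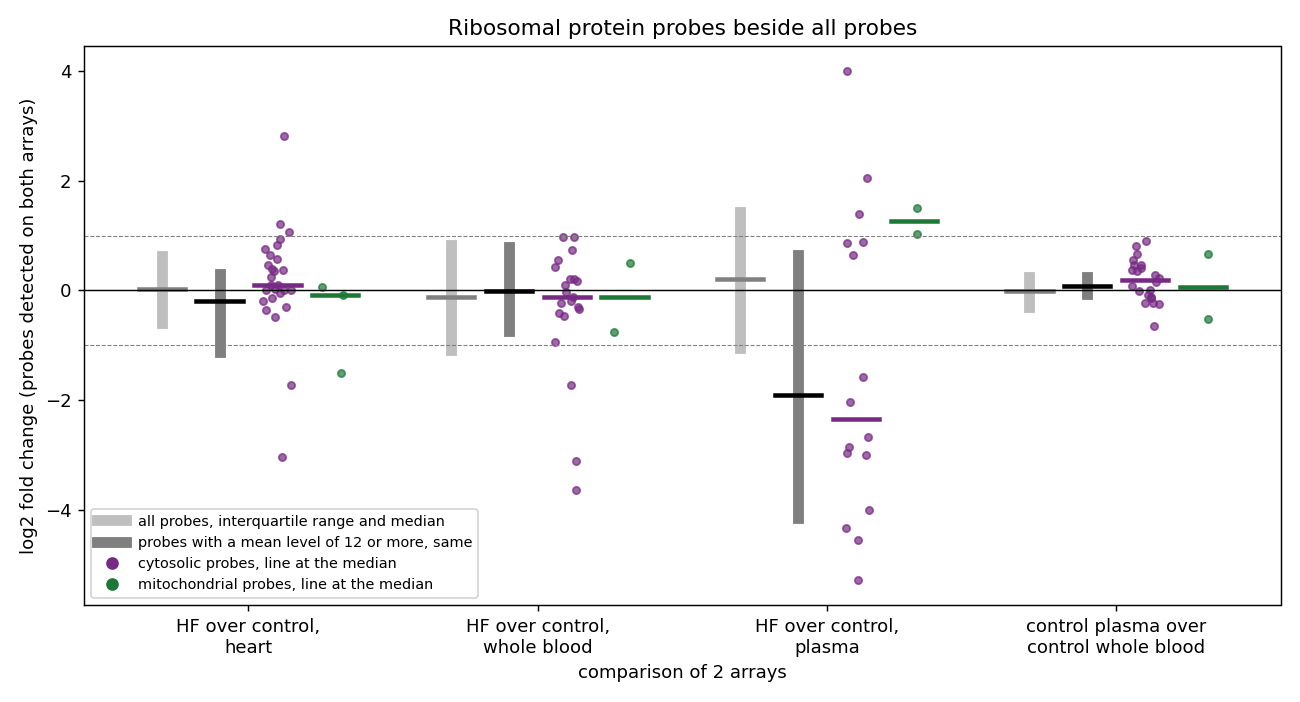
Log2 fold change (vertical axis) of cytosolic and mitochondrial probes detected on both arrays, beside the interquartile range and median of all probes and of probes with a mean level of 12 or more, for 4 comparisons of 2 arrays (horizontal axis). The cytosolic medians are 0.10, -0.13 and -2.35 for HF over control in heart, WB and plasma and 0.20 for control plasma over control WB.

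In plasma, cytosolic ribosomal protein mRNAs were mostly lower in HF. Of the 27 cytosolic probes, 16 were detected on both arrays, and 3 were higher, 10 lower and 3 under 2-fold, where 32.8% of the named mRNA probes were higher and 23.7% lower. The median was -2.35 (interquartile range -3.25 to 0.87) against 0.29 for the named mRNA probes and 0.21 for all probes. Since a probe had to be detected on both arrays to enter these counts, the median over all 27 probes without regard to detection is also given. It was -2.85, against -0.28 for the 4093 named mRNA probes.

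The other 11 probes were detected on 1 array of the pair, 9 in control plasma only and 2 in HF plasma only. Of the 4093 named mRNA probes, 1118 were detected in control plasma only and 426 in HF plasma only. Among those detected in control plasma only, Rpl37a was at least 42.5-fold, Rplp0 at least 17.8-fold, Rpl22 at least 6.80-fold, Rps6 at least 6.36-fold and Rpl13a at least 5.63-fold lower in HF. Rps6 is the small subunit protein that the S6 kinases phosphorylate. Rpl3l was at least 1.80-fold and Rpl18 at least 1.72-fold lower, and Rpl29 gave no bound. Rps27a, which is made as a fusion with ubiquitin, was well above background in HF plasma only and at least 2.16-fold higher there. Rpl28 differed by -3.77, with an outlier spot in control plasma.

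The 10 members that fell in plasma came from both subunits, with 6 large and 4 small subunit probes. Rpl38 (probe 1) had the largest fall, followed by Rpl26. Rpl26, a protein at the exit of the tunnel, was at 15.29 in control heart, 16.12 in HF heart, 14.30 in control WB, 14.51 in HF WB, 15.10 in control plasma and 10.55 in HF plasma, so that HF plasma stood below the other 5 arrays. Its log2 fold change in plasma was -4.54 (error 0.20). The log2 fold change was -3.00 in Rps4x, -2.97 in Rpl34, -2.85 in Rpl19, -2.67 in Rps15, -2.03 in Rpl12 and -1.58 in Rpl35a (probe 1). The 3 members that rose were Rps2, Rpl17 and Rpl30 (probe 2).

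The fall in plasma was found throughout the bright probes. Of the 7 with a mean level of 12 or more, 6 were detected on both arrays and 6 were lower, from -5.28 to -2.67, with a median of -3.51. Among all probes of that brightness 55.5% were lower and 19.1% higher, with a median of -1.92. Of the 20 cytosolic probes with a mean under 12, 10 were detected on both arrays, with 3 higher and 4 lower and a median of 0.76, where 33% of all probes under 12 were higher and 23.6% lower. Of these 20, another 9 were detected in control plasma only and 1 in HF plasma only. Among all 58642 probes under 12, these numbers were 7564 and 4734. Over all 20 without regard to detection the median was -1.81, against 0.01 for all probes under 12. For the 7 bright probes it was -3.77 on the same terms. Opposite directions of bright and dim members were thus seen only among probes detected on both arrays. The split by mean level also uses the arrays that are compared.

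The array of HF plasma also stood apart in its markers. The summed erythroid signal was 461641 in control and 11888 in HF plasma, with Alas2, which makes the first precursor of haem, not well above background. That of platelet markers was 9934 and 204, of lymphocyte markers 3133 and 760, of fibroblast markers 2165 and 225, and of cardiomyocyte markers 21510 and 22148. Of the 17 cardiomyocyte probes, 7 were well above background in control and 5 in HF plasma. Myh6 was the brightest on both arrays, and Actc1, Ckm, Nppa, Tnnc1 and Tnni3 had no such probe on either. Neutrophil markers had 1173 in control and 15293 in HF plasma. What part these cells, or their fragments, had in the change of ribosomal protein mRNAs was not tested. Within the scan that held HF WB and HF plasma, 17 cytosolic probes were detected on both arrays, and 5 were higher and 11 lower in HF plasma, where 38.2% of the named mRNA probes were higher and 29.5% lower. The median there was -2.41. This comparison shares the HF plasma array with the comparison to control plasma.

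Control plasma and control WB differed by less than 2-fold in the cytosolic probes detected on both arrays. Of 22 cytosolic probes detected on both arrays 0 were higher and 0 lower, and the median was 0.20, with a range from -0.65 to 0.90. The background was low as well, as 2.68% of the named mRNA probes were higher and 2.84% lower. Rpl3l, detected in control plasma only, was at least 1.36-fold higher there, and the mitochondrial member Mrps2, detected in control WB only, was at least 2.96-fold lower in control plasma. In HF, single probes stood further apart. Rpl38 (probe 1) differed by 0.23 between control plasma and control WB and by -5.78 between HF plasma and HF WB, and Rps2 by -0.13 and 4.17.

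Between blood and heart, the cytosolic family lay lower against other mRNAs. In control WB over control heart, 22 probes were detected on both arrays, and 7 were higher and 10 lower, where 56.1% of the named mRNA probes were higher and 17.8% lower. The median was -0.72 against 1.36 for the named mRNA probes and 1.13 for all probes. Without regard to detection it was -0.99 over all 27 probes, against 0.38 for the named mRNA probes. With scaling to the 75th percentile the median of probes detected on both arrays turned to 0.26, against 1.09 for all probes. The arrays of control WB and control heart also came from different scans. In HF WB over HF heart, 23 were detected on both arrays, and 4 were higher and 14 lower (background 43.3% and 34.5%), with a median of -1.30. Rps2, Rpl17 and Rpl19 were among the probes that were higher in control WB, and 6 of 7 small subunit probes were lower.

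The 4 genes with 2 probes allowed a check of each gene against itself, and each had probes that moved unequally in at least 1 comparison. The probes are numbered by their level in control heart, and each was assigned to a different RefSeq transcript. Rpl38, a large subunit protein known for its part in the translation of Hox mRNAs, gave the widest gap. Rpl38 (probe 1) was at 16.02 in control heart, 16.27 in HF heart, 15.95 in control WB, 16.69 in HF WB, 16.19 in control plasma and 10.91 in HF plasma. Rpl38 (probe 2) was at 10.21 in control heart, 10.22 in HF heart, 11.17 in control WB, 10.98 in HF WB, 11.45 in control plasma and 12.33 in HF plasma. Probe 1 lay between 15.95 and 16.69 on 5 arrays and dropped in HF plasma, where probe 2 had its highest level. They parted to a lesser degree in WB, by 0.73 against -0.19. Their log2 fold changes in plasma were -5.28 and 0.88, a difference of 6.16 with an error of 0.29.

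Rpl35a, mutated in some patients with Diamond-Blackfan anaemia, showed the same kind of gap on a smaller scale. Rpl35a (probe 1) was at 9.58 in control heart, 9.53 in HF heart, 9.13 in control WB, 8.73 in HF WB, 9.13 in control plasma and 7.54 in HF plasma. Rpl35a (probe 2) was at 8.24 in control heart, 8.25 in HF heart, 8.07 in control WB, 7.94 in HF WB, 8.53 in control plasma and 9.40 in HF plasma. They kept their order on 5 arrays and crossed in HF plasma, with fold changes of -1.58 and 0.87 on the log2 scale, a difference of 2.45 (error 0.30).

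Rpl30, a large subunit protein, had probes that parted between heart and blood. Rpl30 (probe 1) was at 11.81 in control heart, 11.45 in HF heart, 9.28 in control WB, 9.05 in HF WB, 9.94 in control plasma and 10.58 in HF plasma. Rpl30 (probe 2) was at 7.38 in control heart, 7.73 in HF heart, 8.91 in control WB, 9.88 in HF WB, 9.07 in control plasma and 10.45 in HF plasma. Probe 1 was highest in heart and probe 2 lowest there. From control heart to control WB they differed by -2.53 and 1.53, and in plasma HF over control by 0.64 and 1.39.

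Probe sequences are not used here, so which transcripts or related loci each probe reads could not be judged. RefSeq names 94 loci as pseudogenes of the cytosolic genes, with at least 1 for 22 of 24 genes and 12 for Rps2 and 11 for Rpl17, and 3 loci for 1 of the 4 mitochondrial genes. Values of single probes may for this reason include signal from such loci.

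**Figure D4:**
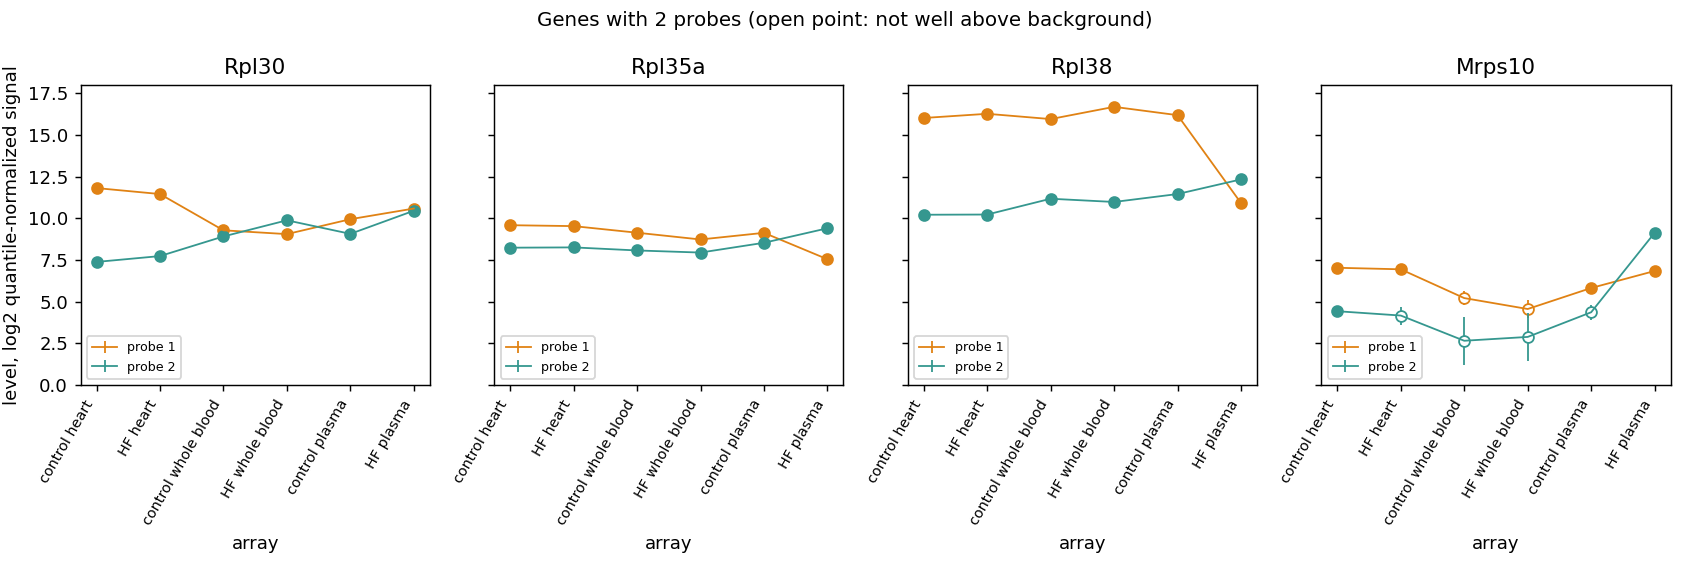
Log2 quantile-normalized level (vertical axis) of both probes of Rpl30, Rpl35a, Rpl38 and Mrps10 on the 6 arrays (horizontal axis), with the error within the array as a bar, often smaller than the point. Open points were not well above background. The probes of Rpl38 and Rpl35a keep their order on 5 arrays and cross in HF plasma.

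The mitochondrial family was small and mostly dim, and only Mrps36 could be followed on all 6 arrays. Mrps36 was named as a small subunit protein and is now known as a subunit of the 2-oxoglutarate dehydrogenase complex. It was counted in this family by its name. Its log2 level was 13.13 in control heart, 11.62 in HF heart, 13.05 in control WB, 13.56 in HF WB, 13.71 in control plasma and 15.21 in HF plasma. HF heart was lowest and HF plasma highest. The log2 fold change was -1.51 (error 0.20) in heart, 0.51 in WB and 1.5 (error 0.20) in plasma, and with scaling to the 75th percentile that in heart was -0.98.

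Mrps33, a protein found in mitochondrial ribosomes and not in bacterial ones, was at 11.17 in control heart, 11.23 in HF heart, 8.77 in control WB, 8.01 in HF WB, 8.24 in control plasma and 5.35 in HF plasma. It was highest in heart and not well above background in HF plasma, where it was at least 7.31-fold lower than in control. Its log2 fold change was 0.05 in heart and -0.76 in WB.

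Mrps10 had its 2 probes moving the same way in plasma, to an unequal extent. Mrps10 (probe 1) was at 7.03 in control heart, 6.94 in HF heart, 5.21 in control WB, 4.56 in HF WB, 5.82 in control plasma and 6.84 in HF plasma. Mrps10 (probe 2) was at 4.42 in control heart, 4.16 in HF heart, 2.65 in control WB, 2.88 in HF WB, 4.36 in control plasma and 9.13 in HF plasma. Neither was well above background in WB, and the second was detected in control heart and HF plasma only. In plasma probe 1 was higher by 1.02 on the log2 scale (error 0.27), which fell under the limit at 0.92 to 0.94 with other normalizations and at 0.63 with a normexp correction, and probe 2 was at least 22.5-fold higher.

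Mrps2 was at 5.11 in control heart, 4.12 in HF heart, 6.20 in control WB, 2.61 in HF WB, 2.91 in control plasma and 2.62 in HF plasma. It was detected in control heart and control WB only, and was at least 1.31-fold lower in HF heart and at least 2.01-fold lower in HF WB.

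Set side by side, the medians of the families were furthest apart in plasma. In heart 3 of 5 mitochondrial probes were detected on both arrays, with 0 higher and 1 lower and a median of -0.09. With scaling to the 75th percentile the heart medians were 0.60 for the cytosolic and 0.07 for the mitochondrial family. In WB 2 of 5 were, with 0 higher and 0 lower and a median of -0.13. In plasma 2 of 5 were, with 2 higher and 0 lower (background 32.8% and 23.7%) and a median of 1.26. Those 2 were Mrps36, counted by its name, and Mrps10 (probe 1), whose value lay at the 2-fold limit. Mrps33 went the other way with its bound. The cytosolic median minus the mitochondrial median was 0.19 in heart, -0.00 in WB and -3.61 in plasma. The value in plasma sets 16 probes against 2, and over all probes without regard to detection the cytosolic and mitochondrial medians were 0.10 and -0.26 in heart, -0.19 and -0.66 in WB and -2.85 and 1.02 in plasma.

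The S6 kinases act on the ribosome and are no part of it. Rps6ka1, which encodes the kinase RSK1, was at 9.53 in control heart, 10.10 in HF heart, 8.81 in control WB, 10.53 in HF WB, 9.02 in control plasma and 10.12 in HF plasma. Each HF array was above its control, and the log2 fold change was 0.57 in heart, 1.72 (error 0.21) in WB and 1.1 (error 0.21) in plasma. Rps6kb1, which encodes S6K1, was at 7.94 in control heart, 8.11 in HF heart, 6.44 in control WB, 6.10 in HF WB, 6.22 in control plasma and 4.76 in HF plasma. It was highest in heart, had log2 fold changes of 0.17 in heart and -0.34 in WB, and was at least 1.79-fold lower in HF plasma.

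Ribosomal proteins under other names were mostly lower in plasma. For these and the lists that follow, the shares of named mRNA probes higher and lower are 11.6% and 17.1% in heart, 20.1% and 27.6% in WB and 32.8% and 23.7% in plasma. In plasma a further 1118 of the named probes were detected in control only and 426 in HF only, and the bounds given for the lists are read against these. Fau, which encodes a small subunit protein fused to a ubiquitin-like part, Gnb2l1, which encodes the scaffold RACK1 of the small subunit, and Dap3 of the mitochondrial small subunit had 5 probes. In plasma 4 were detected on both arrays, with 0 higher and 3 lower, all of the cytosolic ribosome. Dap3 was at least 2.99-fold lower. Gnb2l1 fell the most, by 2.52 on the log2 scale (error 0.21), and 1 of the 3 probes of Fau had 0.69. In heart 0 of 5 were higher and 1 lower, that probe of Fau at -1.04, and Gnb2l1 was at 0.56. In WB 1 was higher, Gnb2l1 at 1.19, and 1 lower, Dap3 at -1.63.

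Other mRNAs of the TOP class, 10 probes of 8 genes that encode elongation factors, the poly(A)-binding protein and others, included the probes of Fau and Gnb2l1. Of 5 probes detected on both arrays 0 were higher and 4 lower, with a median of -2.11, and Tpt1 was the only one beside Fau and Gnb2l1. Tpt1, which encodes the translationally controlled tumour protein, was at 17.26 in control and 11.11 in HF plasma and fell by 6.15 on the log2 scale. Npm1 was at least 2.84-fold and Eef2 at least 1.40-fold lower in HF plasma. In heart 2 of 10 were higher and 1 lower, with Npm1 at 1.21, and in WB 1 of 6 was higher and 0 lower.

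Initiation factors had members in both directions in each tissue. Of 16 initiation probes, 15 were detected on both heart arrays, with 3 higher and 2 lower, from Eif4a2 (an RNA helicase) at 1.74 to Eif4e2 (a cap-binding protein) at -1.96. In WB 9 were detected on both, with 1 higher (Eif4a1 at 1.32) and 1 lower (Eif1a at -2.74). In plasma 7 were, with 2 higher and 1 lower, from Eif2b4 (a subunit of the exchange factor of eIF2) at 3.89 to Eif4g1 (the scaffold of the cap complex) at -1.39. Another 5 were bounded lower, with Eif4g2 at least 2.57-fold and Eif3e at least 2.20-fold, and 1 higher, Eif3a at least 1.67-fold, and the median of all 16 without regard to detection was -0.63. Of 5 elongation and termination probes in heart, 2 were higher and 1 lower, with the release factor gene Gspt2 at 1.11 and Eef1a2, the muscle and neuron form of the elongation factor, at -1.31. In WB 0 of these 5 were detected on both arrays, and in plasma 1 was, Gspt1 at 0.83, beside 2 bounded lower.

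Aminoacyl-tRNA synthetases load tRNAs. Of 8 probes 5 were detected on both plasma arrays, with 4 probes of 3 genes higher and 1 lower, from Qars at 3.01 to Hars at -2.79. Another 2 were bounded lower, a second probe of Tars2 at least 2.26-fold and Kars at least 1.38-fold, and the median of all 8 was 0.35. In WB 3 of 6 were higher and 0 lower, with the mitochondrial enzyme gene Tars2 at 2.25 and Qars at -0.79, and in heart 0 of 8 were higher and 0 lower, from Hars at 0.42 to Qars at -0.63. Of 13 ribosome biogenesis probes, 9 were detected on both heart arrays, with 1 higher (the nucleolar chaperone gene Npm1 at 1.21) and 0 lower. In WB 2 of 9 were higher and 1 lower, from the polymerase I factor gene Rrn3 at 1.86 to the pseudouridine synthase gene Dkc1 at -1.80. In plasma 1 of 4 was higher, Npm3 at 2.32, and 2 lower, with the polymerase subunit gene Polr1d at -2.94. Another 8 were bounded lower, from Nolc1 at least 11.3-fold to Nol9 at least 1.26-fold, and 0 higher, and the median of all 13 without regard to detection was -2.52.

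Among 3 genes of mitochondrial translation, Gfm2, which encodes a factor that recycles the mitochondrial ribosome, was higher in heart at 1.64, and the elongation factor gene Tufm was at -0.54. In WB 2 were detected on both arrays, with Tufm at 0.12 and Fastkd5 at -0.12. In plasma Tufm fell by 2.69 on the log2 scale (error 0.31), and Fastkd5, which acts on mitochondrial RNA, was at 0.70.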

How the data were processed

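LncRNA and mRNA levels of 6 mixtures of mouse RNA had been measured on 1 single-colour array each. The authors' scanner files hold an intensity for each spot, and the deposited processed intensity was background-subtracted by Agilent Feature Extraction 11.0.1.1, with no normalization across arrays. Sorted values of the series table differed from those in 0 cases. The study's own processing was quantile normalization with a filter on detection and a 2-fold limit.

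Control spots were left out, and log2 signals of 59729 probes were averaged over spots and quantile normalized over the 6 arrays. Members and gene lists (pathway lists and markers) were chosen with earlier results of these data known, so counts over them are descriptions. Values on all arrays are given for mitochondrial members, genes with 2 probes, the 3 largest rises and falls of each tissue, Rpl3l and the S6 kinases, and for each pathway list its largest rise and fall where any probe was detected on both arrays. Some members are counted in the families without being reported singly here. Groups came from the sample labels. Alternatives were another scaling (75th percentile), quantile normalization of single pairs or of heart and blood apart, normexp (offset 50), no detection filter or a weaker flag, outlier spots kept, saturated probes left out, detection on all 6 arrays, 1 value a gene, and limits of 1.5-fold and 4-fold. Scaling was extended to differences between tissues, to bright probes and to pathway lists after the data had been seen, as was the omission of the detection filter for those lists. The number of arrays, 1 per condition, limits the precision. The steps were tested on simulated data. Software was limma 3.58.1 in R 4.3.3, and pandas 2.3.3 and numpy 2.4.6 in Python 3.11.15.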

Additional observations from a re-analysis of the deposited data

Results flagged for a closer look

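The direction of 3 members differed between tissues, with a change of at least 2-fold each way on arrays where they were detected. Rpl17 had a log2 fold change of -1.73 in WB and 2.06 in plasma. Rps2 had -1.72 in heart and 3.99 in plasma. Mrps36 had -1.51 in heart and 1.5 in plasma. With 1 array per condition, these differences between tissues were not tested.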

How the results depend on the processing

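No paired analysis was possible within a tissue, because each condition had 1 array and the labels carry no replicate numbers, and a fit of HF over the 3 tissues with tissue as a block was not run. Of 71 single values recomputed under the alternatives, 24 were at least 2-fold, and 0 of these turned direction. Values under 2-fold did turn in WB and in heart with scaling to the 75th percentile. In heart, the probes above 0 then went from 19 to 22 of 27 cytosolic and from 1 to 2 of 3 mitochondrial ones. Only the other normalizations and normexp could turn a single value, because the filters on detection, outliers and saturation leave it unchanged. Of the 71 values, the 75th percentile moved 46 by their error or more, and normexp 22. Scaling to the 75th percentile, which moved the median of all probes from 0.02 to 0.20 in heart, from -0.13 to -0.35 in WB and from 0.21 to 0.09 in plasma, gave cytosolic medians of 0.60 in heart and -0.80 in WB and mitochondrial medians of -0.87 in WB and 1.02 in plasma. It raised the cytosolic count in heart from 3 to 6 higher beside 2 lower, and in WB from 3 to 7 lower beside 0 higher, and lowered the mitochondrial counts to 0 lower in heart and 1 higher in plasma. The cytosolic median in plasma, -2.35, was -2.06 with normexp, -2.67 with the weaker flag, with outlier spots kept or with 1 value a gene, -2.85 with no detection filter and -2.03 for probes detected on all 6 arrays. The mitochondrial medians with no filter were -0.66 in WB (also with the weaker flag) and 1.02 in plasma, and on all 6 arrays, where only Mrps36 was left, -1.51 in heart, 0.51 in WB and 1.5 in plasma. With no filter, 5 cytosolic probes were lower in WB and 19 in plasma, and 1 was higher in WB. With normexp, 5 were higher in plasma and 1 in WB. At 1.5-fold, 7 were higher in heart, 3 in WB and 6 in plasma, and at 4-fold 1 was higher and 1 lower in heart. For probes detected on all 6 arrays, 1 was higher and 1 lower in heart and 1 lower in WB. The mitochondrial count in plasma, 2 higher, was also 1 within pairs, with heart and blood apart, with normexp and on all 6 arrays, and 0 at 4-fold, and that in heart, 1 lower, was 0 at 4-fold. With the weaker flag or heart and blood apart, 1 cytosolic probe was higher in WB. The cause of these shifts was not tested. With 1 array per condition, differences between mice cannot be measured, and dim probes, such as most mitochondrial ones, are limited by their signal over background.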
